A study of Mus musculus with 2 samples.

Results

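Cdkn1a, the Gadd45 genes and other targets of the transcription factor p53 were described in gastrocnemius muscle of a mouse depleted of PDGFRα-positive mesenchymal progenitors and of a control. The genes were chosen by name, as probes whose annotated symbol was one of 10 listed targets. This gave 9 genes, each with 1 probe, of 18498 genes compared: Cdkn1a, Gadd45a, Gadd45b, Gadd45g, Btg2, Ccng1, Mdm2, Trp53inp1 and Phlda3. The listed target Bax was not analysed here. All 9 probes were above the limit for background on both arrays.

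Expression was measured on 1 array for each of 2 female littermates, a Pdgfra-CreER:R26-DTA animal (depleted, below) and a wild type:R26-DTA animal (control, below). Both mice carried the R26-DTA allele, in which Cre recombination at the Rosa26 locus switches on diphtheria toxin A. The CreER, a Cre that tamoxifen activates, is driven by the Pdgfra promoter, and the control did not carry it. Both received tamoxifen from 9 weeks of age on 5 days, and the muscle was taken at 10 weeks of age, 2 days after dosing ended, and frozen. The question was how gene expression of muscle changes without these interstitial progenitors. The presence of CreER and the depletion cannot be told apart. With 1 array per group no test can be made, and each difference below may also be one between these 2 animals.

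p53 is a transcription factor that accumulates when DNA is damaged or a cell is stressed, and its targets halt the cell cycle, aid repair or start cell death. The best known target is Cdkn1a, which codes for p21, an inhibitor of cyclin-dependent kinases. Mdm2 codes for the ubiquitin ligase that marks p53 for degradation and so closes a feedback loop. Several of these genes also answer to other inputs. In muscle fibres, Cdkn1a and Gadd45a are known to rise with denervation and other causes of atrophy, and the Gadd45 genes and Btg2 respond quickly to stress and growth signals.

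The sequence before the transcription start is shown for 5 of the genes, because they include those with the largest differences in each direction. Each window holds the 250 bases before an annotated start in RefSeq (GRCm38.p6), 5′ to 3′ on the strand of the gene. Capitals mark matches to the p53 half-site in the first Cdkn1a window, Gadd45a and Ccng1, the GC box GGGCGG in the second Cdkn1a window, and the TATA box TATAAA in Gadd45b and Gadd45g.
Cdkn1a, GRCm38.p6, chr17:29090729-29090978, plus strand: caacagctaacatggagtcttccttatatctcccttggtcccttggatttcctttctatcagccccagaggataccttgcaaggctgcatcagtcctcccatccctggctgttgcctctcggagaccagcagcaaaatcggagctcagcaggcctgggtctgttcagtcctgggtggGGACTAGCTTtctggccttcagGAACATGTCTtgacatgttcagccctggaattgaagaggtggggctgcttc
Cdkn1a, GRCm38.p6, chr17:29093519-29093768, plus strand: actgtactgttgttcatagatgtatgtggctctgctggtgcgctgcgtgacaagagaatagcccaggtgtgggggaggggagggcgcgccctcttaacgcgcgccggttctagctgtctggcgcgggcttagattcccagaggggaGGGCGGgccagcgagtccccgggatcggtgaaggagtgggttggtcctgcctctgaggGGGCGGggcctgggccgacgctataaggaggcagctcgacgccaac
Gadd45a, GRCm38.p6, chr6:67037408-67037657, minus strand: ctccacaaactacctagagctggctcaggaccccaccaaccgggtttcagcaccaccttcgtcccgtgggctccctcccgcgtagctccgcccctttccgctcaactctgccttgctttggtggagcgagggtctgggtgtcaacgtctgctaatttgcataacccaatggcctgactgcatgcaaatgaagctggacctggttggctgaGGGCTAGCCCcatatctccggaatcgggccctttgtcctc
Gadd45b, GRCm38.p6, chr10:80929841-80930090, plus strand: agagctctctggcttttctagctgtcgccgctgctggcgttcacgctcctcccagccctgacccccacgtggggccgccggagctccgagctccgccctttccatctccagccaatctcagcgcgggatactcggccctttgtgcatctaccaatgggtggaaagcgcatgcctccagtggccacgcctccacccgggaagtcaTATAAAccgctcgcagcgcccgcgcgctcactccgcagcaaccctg
Gadd45g, GRCm38.p6, chr13:51846425-51846674, plus strand: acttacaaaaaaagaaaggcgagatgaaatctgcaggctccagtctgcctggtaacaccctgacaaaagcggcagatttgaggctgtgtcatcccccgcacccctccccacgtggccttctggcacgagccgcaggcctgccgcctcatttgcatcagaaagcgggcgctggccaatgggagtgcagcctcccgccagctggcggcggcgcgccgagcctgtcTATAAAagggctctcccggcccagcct
Ccng1, GRCm38.p6, chr11:40755287-40755536, minus strand: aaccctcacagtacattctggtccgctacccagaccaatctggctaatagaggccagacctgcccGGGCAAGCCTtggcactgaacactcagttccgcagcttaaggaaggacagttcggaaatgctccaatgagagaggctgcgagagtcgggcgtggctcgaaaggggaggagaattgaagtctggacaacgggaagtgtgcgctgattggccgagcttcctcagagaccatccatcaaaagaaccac

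The first Cdkn1a window held a p53 half-site from 73 to 64 bases before the start and another from 51 to 42 bases before it. The window of the inner Cdkn1a start held none. Gadd45a had a match from 40 to 31 bases before the start and Ccng1 one from 185 to 176 bases before it. Mdm2 (not shown) also had a match, so that 4 of 8 measured genes with a window held the half-site. Over all genes, 7.12% of 32817 windows of this length held one on either strand, which is a share of windows and not of genes. The 8 genes had 9 windows, 2 of them for Cdkn1a, and were listed as p53 targets beforehand. Gadd45b, Gadd45g, Btg2 and Phlda3 had none in these windows. Gadd45b and Gadd45g were the 2 of 8 genes with a TATA box, which 12.4% of all windows held. The cyclic AMP response element TGACGTCA was found in 1 of the 8 genes, Btg2, against 1.55% of windows. The FoxO motif GTAAACA occurred in Mdm2 only (3.16% of windows), and the full glucocorticoid response element and the serum response element core in 0 of 8. All motifs were searched on both strands, and CCAAT and GC boxes were found in 6 of 8 genes each (33.8% and 32.7% of windows). A match is a description of the letters in these windows and was not tied to binding.

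Among the 9 genes, Cdkn1a, Gadd45a and Gadd45b differed by 2-fold or more, all 3 higher in depleted muscle, and 0 of the 9 were 2-fold lower. Of all 18498 genes compared, the share that was 2-fold higher or more was 0.492%, and the share that was lower by as much was 0.427%. At or above the median intensity, where all 9 genes lie, these shares were 0.973% and 0.854%. The median log2 ratio (depleted over control) was 0.43 over the 9 genes and 0.00 over all genes. In the authors' processed values 4 of the 9 genes were at least 2-fold higher, against 3.20% of all genes. Values differed widely among the 9, from -0.93 for Ccng1 to 1.91 for Cdkn1a. The genes were listed with earlier results of these data known, so these counts describe them and are not evidence for the pathway.

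Log2 ratios come from spot intensities after background correction and quantile normalization, which gives both arrays the same distribution. Processed intensities are the authors' own background-subtracted and scaled values. The correction adds an offset that draws ratios of dim genes toward 0, so both are given. A measure of technical error came from 2 positive controls spotted 24 times on each array. The log2 ratio of spots at the same position had an SD of 0.14 for one and 0.15 for the other. This covers spot-to-spot error only, not the spread between animals. Mean spot intensities of the controls ran from 850.6 to 9837.3, and the error of dimmer spots was not measured.

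**Figure D1:**
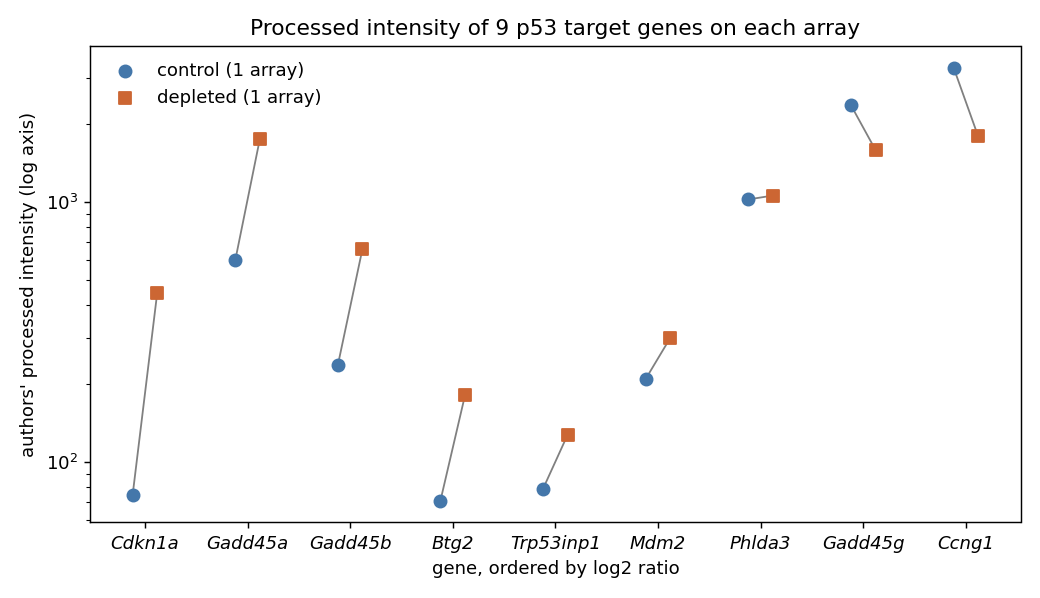
Authors' processed intensity (log axis) of the 9 genes on both arrays (circles, control; squares, depleted), with a line joining the 2 values of a gene. Cdkn1a goes from 74.5 to 446.9, while Gadd45g and Ccng1 are lower on the depleted array.

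Cdkn1a had the largest difference of the 9 genes. Its spot intensity was 94.8 in control and 513.1 in depleted muscle, and its processed intensity 74.5 and 446.9. The depleted array was thus 6.00-fold higher in processed values. The log2 ratio was 1.91, or 3.76-fold, which ranked 19 from the highest of 18498 genes. This exceeded the spot-to-spot SD of 0.15, which was taken from brighter spots. With the ordering by log2 ratio as the measure of likeness over these 2 arrays, the named genes next above Cdkn1a were Txnip (1.92), a thioredoxin-binding protein, and Retnla (1.99), a secreted protein of alternatively activated macrophages. Next below were Tnfrsf12a (1.86), the receptor of the cytokine TWEAK, and Cnksr1 (1.68), a scaffold protein.

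The 3 Gadd45 genes code for small proteins that bind cell cycle kinases, PCNA and a kinase upstream of p38 and JNK. They did not move together. Gadd45a had spot intensities of 504.0 in control and 1894.2 in depleted muscle and processed intensities of 595.2 and 1743.1. Its log2 ratio was 1.41, or 2.66-fold, at rank 36 from the highest. Gadd45b, induced by NF-κB and TGF-β signals as well, had spot intensities of 221.4 and 739.5 and processed intensities of 235.7 and 659.4. Its log2 ratio was 1.27, or 2.42-fold, at rank 46.

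Gadd45g was lower in depleted muscle, in contrast to its relatives. Its spot intensities were 1884.3 in control and 1721.0 in depleted muscle and its processed intensities 2351.7 and 1580.5. The log2 ratio was -0.63, a 1.54-fold difference, at rank 249 from the lowest. Setting the family members against each other on the same arrays, the log2 ratio of Gadd45a exceeded that of Gadd45g by 2.04. Gadd45b exceeded Gadd45g by 1.90. The filters and the averaging of probes cannot move such a difference. Scaling to the positive control spots gives the same difference as scaling to the median, since the 2 scalings differ by a shift of all genes alike. The 7 other alternatives, scaling to the median among them, gave 2.01 to 4.12 for Gadd45a and 1.80 to 2.66 for Gadd45b, all computed on the same 2 arrays. Gadd45g itself was lower in all 12 settings, from -1.07 to -0.26, though the filters and the averaging of probes could only repeat its main value.

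Btg2, an antiproliferative protein that recruits the deadenylase complex to mRNAs, was higher in depleted muscle. Its spot intensities were 92.2 and 230.0 and its processed intensities 71.1 and 181.1, a 2.55-fold difference. The log2 ratio was 0.89, just short of 2-fold, and the gene ranked 124 from the highest. It passed 2-fold in 5 of the 12 settings, among them the authors' processed values (1.35). The filters and the averaging of probes, counted in the 12, could only repeat its main value.

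Ccng1 codes for cyclin G1, which brings the phosphatase PP2A to Mdm2 and is a widely used marker of p53 activity. It was lower in depleted muscle, with spot intensities of 2614.9 in control and 1937.7 in depleted muscle and processed intensities of 3281.5 and 1783.9. The log2 ratio was -0.93, or 1.90-fold lower, at rank 101 from the lowest. Cdkn1a and Ccng1 thus differed in opposite directions, and their log2 ratios lay 2.84 apart (2.69 to 3.63 over the same 7 alternatives). Both hold a p53 half-site in a window printed above.

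Mdm2, the negative regulator of p53, had spot intensities of 200.3 and 357.0 and processed intensities of 208.7 and 300.3. Its log2 ratio of 0.42 was a 1.34-fold difference. Trp53inp1, a stress protein that promotes p53-dependent cell death and autophagy, had processed intensities of 79.0 and 127.5 and a log2 ratio of 0.43. In the main setting both genes were higher by more than the spot-to-spot SD, which was taken from brighter spots, but by less than 1.5-fold. That SD does not cover the scaling of the arrays. With scaling to the positive control spots Mdm2 was at -0.15 and Trp53inp1 at -0.21, with the median of all genes at -0.83. Phlda3, which codes for a pleckstrin homology protein that opposes Akt at the membrane, had processed intensities of 1021.5 and 1057.7. Its log2 ratio of 0.02 was smaller than the spot-to-spot SD.

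**Figure D2:**
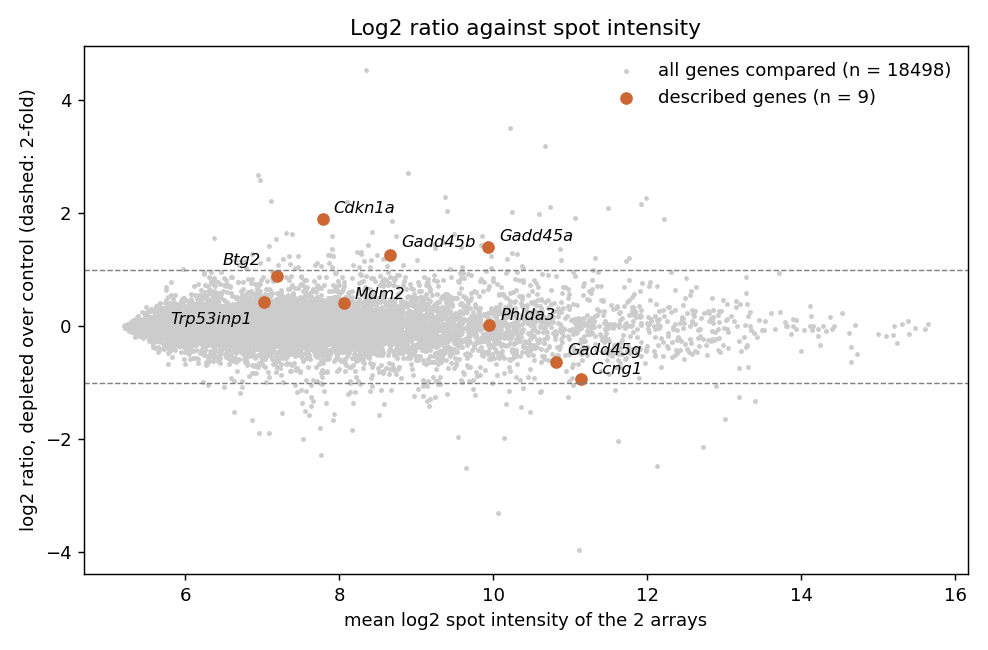
Log2 ratio (depleted over control, main setting) against the mean log2 spot intensity of the 2 arrays for 18498 genes (grey) and the 9 described genes (orange, named); dashed lines mark 2-fold. Cdkn1a (1.91), Gadd45a (1.41) and Gadd45b (1.27) lie above the upper line, and Ccng1 (-0.93) lies just inside the lower one.

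The scaling of the arrays bears on these values. After quantile normalization 91 genes were higher by 2-fold or more and 79 lower, so 53.5% of these were higher. Scaling to the median gave 216 and 38, or 85.0% higher. On that scale 4 of the 9 genes were 2-fold higher, against 1.17% of all genes, and 0 were 2-fold lower, against 0.205%, with Gadd45g at -0.26, Ccng1 at -0.56 and Phlda3 at 0.34. Scaling to the positive control spots, whose content is not given in the sources used here, lowered the median of all genes to -0.83 and gave 27 higher and 794 lower genes, or 3.29% higher. On that scale Cdkn1a was at 1.33, Gadd45a at 0.94, Gadd45b at 0.74 and Btg2 at 0.25, while Mdm2 (-0.15), Trp53inp1 (-0.21) and Phlda3 (-0.47) were below 0. Relative to that median of all genes, they were at 2.16, 1.77, 1.57, 1.09, 0.68, 0.62 and 0.36. Cdkn1a was at least 2-fold higher in all 12 settings, and Gadd45a and Gadd45b in 11. These tallies include the filters and the averaging of probes, which could only repeat the main value of these genes.

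**Figure D3:**
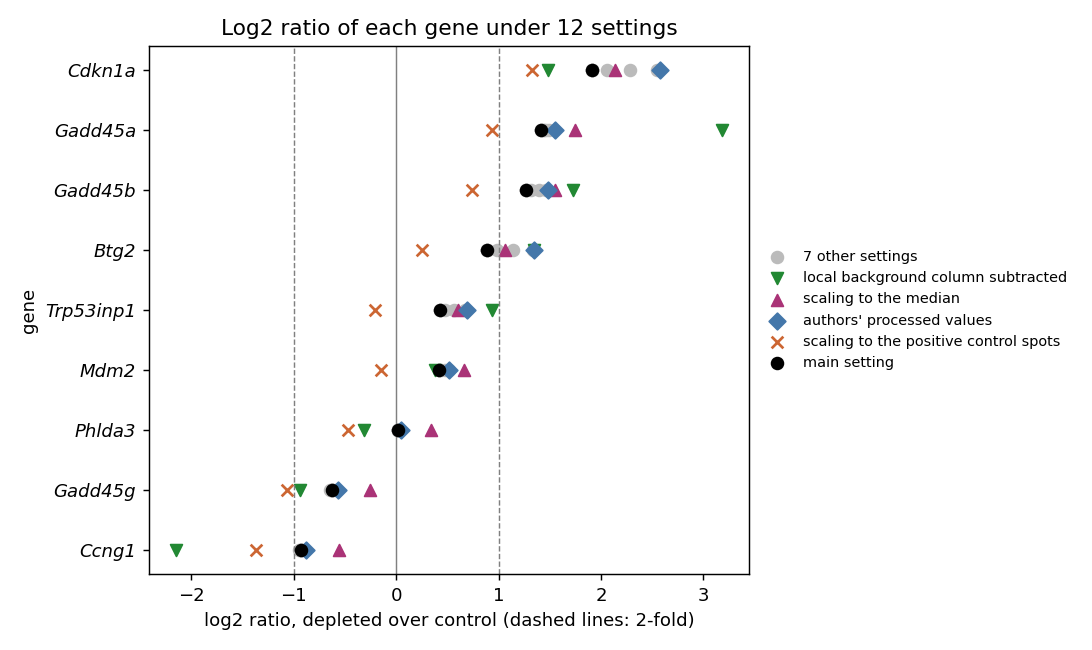
Log2 ratio (depleted over control) of each of the 9 genes under 12 settings; black points are the main setting and dashed lines mark 2-fold. Cdkn1a stays to the right of 2-fold throughout (1.33 to 2.58), Gadd45g (-1.07 to -0.26) and Ccng1 (-2.15 to -0.56) stay below 0, and Mdm2, Trp53inp1 and Phlda3 cross 0 with scaling to the positive control spots, Phlda3 also with the local background subtracted (-0.31).

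Of 18 listed regulators and relatives of p53, 15 were measured. At least 1.5-fold higher were 0 of them and 0 were lower by as much, against 1.96% and 1.52% of all genes, so the count is near that of all genes. Several were dim, where the offset draws ratios toward 0: the processed intensities of Trp63, Chek1, Cdkn2a and Trp73 were at most 11.4, and these genes were named after their values were seen. With the local background subtracted 3 of the 15 were at least 2-fold higher, as were 1940 of all 18498 genes. In the main setting the log2 ratios of the 15 ran from -0.16 to 0.20, with a median of 0.00. The largest belonged to the deacetylase Sirt1 (0.20) and the acetyltransferase Kat5 (0.19), and the lowest to the ubiquitin ligase Cop1 (-0.16). Sirt1 and Cop1 have 2 probes each, and the mean of their probes was at 0.12 and -0.14. Mdm4, the relative of Mdm2 that restrains p53 activity, was dim, with processed intensities of 8.2 in control and 7.4 in depleted muscle and a log2 ratio of -0.02. Subtraction of the local background column put Mdm4 at 1.45. Transcript levels say nothing of p53 protein, which is controlled largely by degradation.

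Of 19 measured targets that act in arrest and repair, 1 was at least 2-fold higher, against 0.492% of all genes, and 0 were lower by as much, against 0.427%, with a median of 0.01. In the authors' processed values 2 were at least 2-fold higher, against 3.20% of all genes; the second was the dim cytoskeletal gene Ckap2 (2.4 in control and 7.3 in depleted muscle), named after its values were seen. The gene past 2-fold in the log2 ratio was Sesn1, a sestrin that restrains mTORC1 and is also a FoxO target. Its processed intensities were 216.4 and 787.6 and its log2 ratio was 1.61, at rank 25 from the highest, close to Cdkn1a. Tigar, a regulator of glycolysis, was at -0.31 and the DNA polymerase Polk at -0.26. The other sestrin on the list, Sesn2, was at -0.20 with processed intensities of 226.2 and 190.0.

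Of 16 measured targets that act in cell death, 0 were at least 1.5-fold higher or lower, against 1.96% and 1.52% of all genes, and the median was 0.06. In the authors' processed values 2 of the 16, Eda2r and Pmaip1, were at least 2-fold higher, against 3.20% of all genes, and the median was 0.30. The death receptor Fas was at 0.52, with processed intensities of 97.2 and 164.8. The ectodysplasin receptor Eda2r was dim, at 6.5 and 31.0 in processed values and 0.47 in log2 ratio. Ei24, a protein of the endoplasmic reticulum, was at -0.36. The BH3-only genes Bbc3 (0.07) and Pmaip1 (0.10), which code for Puma and Noxa, were dim on both arrays. Their processed intensities were 12.4 and 15.6 for Bbc3 and 3.4 and 7.8 for Pmaip1.

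In the Bcl2 family and its caspase partners, 1 of 16 measured genes passed 2-fold in each direction, against 0.492% of all genes upward and 0.427% downward, and the median was -0.03. Bnip3, a mitophagy receptor induced by FoxO factors and hypoxia, was at 1.16, from 2405.3 to 5542.8 in processed values. Cycs, cytochrome c of the respiratory chain, was at -1.04, from 3202.9 to 1589.2, and at -0.68 with scaling to the median. Bcl2l2, an antiapoptotic member, was at -0.28.

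The cell cycle machinery that p21 acts on was measured for 17 cyclins, kinases and other inhibitors. In the log2 ratio 0 of them were at least 1.5-fold higher or lower, against 1.96% and 1.52% of all genes, and the median was 0.01. In the authors' processed values 3 were at least 2-fold higher, against 3.20% of all genes, and 0 were lower by as much, against 2.15%. All 3 were dim: Cdk1, the S phase cyclin Ccna2 (3.4 in control and 15.8 in depleted muscle) and the G1 cyclin Ccne1 (2.9 and 7.9), the last 2 named after their values were seen. The retinoblastoma gene Rb1 was at -0.43, the related inhibitor Cdkn1c at -0.42, and the mitotic kinase Cdk1 at 0.31 with dim processed intensities of 7.8 and 23.4. Cdkn1b, which codes for the related inhibitor p27, was at -0.07. Among 14 proliferation genes the median was 0.13. At least 1.5-fold higher were 0, and 1 was lower by as much, the kinase Aurka (-0.91), against 1.96% and 1.52% of all genes. Ccnb2 (0.31) and Birc5 (0.27) had processed intensities of at most 24.8. In the authors' processed values the median of the proliferation genes was 0.61, with 5 genes past 2-fold upward and 1 downward, against 3.20% and 2.15% of all genes. All 5 were dim, at 24.8 or less on both arrays: Ccnb2, Birc5, Top2a (3.8 and 15.4), Mcm5 (7.8 and 16.8) and Rrm2 (5.2 and 12.1). The last 3 were named after their values were seen.

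The partners of the Gadd45 proteins had a median of -0.07 over 9 genes, and 0 were at least 1.5-fold higher or lower, against 1.96% and 1.52% of all genes. In the authors' processed values 1 was at least 2-fold higher (Cdk1) and 1 lower (Map2k6, 62.9 and 28.6), against 3.20% and 2.15%. The lowest log2 ratios were those of the p38 activator Map2k6 (-0.50) and the kinase Mapk9 (-0.43), and Cdk1 was the highest. Relatives and partners of the other targets had a median of 0.01 over 12 genes. At least 2-fold higher were 0 and 0 were lower by as much, against 0.492% and 0.427% of all genes. At 1.5-fold, 1 was higher and 2 were lower, against 1.96% and 1.52%. In the authors' processed values 0 were at least 2-fold higher and 1 was lower by as much, against 3.20% and 2.15%. Trp53inp2, the muscle-enriched relative of Trp53inp1 that acts in autophagy, had processed intensities of 1505.4 and 751.8, a 2-fold lower level, so the 2 relatives lay on opposite sides of 0. With scaling to the median Trp53inp2 was at -0.66. Of the relatives of Btg2, Tob1 was at -0.75 and Btg1 at 0.60. Ccng2, the relative of Ccng1 and a FoxO target, was at 0.43 with processed intensities of 153.3 and 227.1.

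Factors other than p53 that are known to induce Cdkn1a or Gadd45 genes were measured for 16 genes, with a median of 0.08. Of these, 5 were higher by 1.5-fold or more and 0 lower by as much, against 1.96% and 1.52% of all genes. In the authors' processed values 2 were at least 2-fold higher and 1 lower by as much, against 3.20% and 2.15% of all genes. The 2 were Egr1 and the dim Cebpd (2.4 in control and 6.3 in depleted muscle), and the 1 was the dim Smad3 (17.8 and 6.3). Cebpd and Smad3 were named after their values were seen. The immediate early factor Egr1 was at 2.22, from 20.9 to 305.6 in processed values. Stat3 was at 0.69, Foxo3 at 0.67, Klf15 at 0.63 and Atf4 at 0.60. These are levels of transcripts, and the activity of the factors was not measured. Klf15 and Atf4 are named to complete the 5 and were chosen after their values were seen. Stat3 and Foxo3 have 2 probes each, and the mean of their probes was at 0.39 and 0.35, below 1.5-fold. With scaling to the positive control spots Foxo3 (0.16) and Stat3 (0.15) were near 0. Genes of the denervation response, of which Gadd45a is one, had a median of 0.03 over 13 others. Of these 13, 2 were at least 2-fold higher, against 0.492% of all genes, Fbxo32 (3.19) and Trim63 (2.71), ubiquitin ligases whose levels mark atrophy in general, and the deacetylase Hdac4, which acts upstream of Gadd45a in denervated muscle, was at -0.28. The subunits Chrna1 (-0.17) and Chrng (0.03) of the acetylcholine receptor and the factor Myog (0.20), also on this list, were within 1.5-fold. They were named after their values were seen. Whether denervation had any part in these values was not tested.

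**Figure D4:**
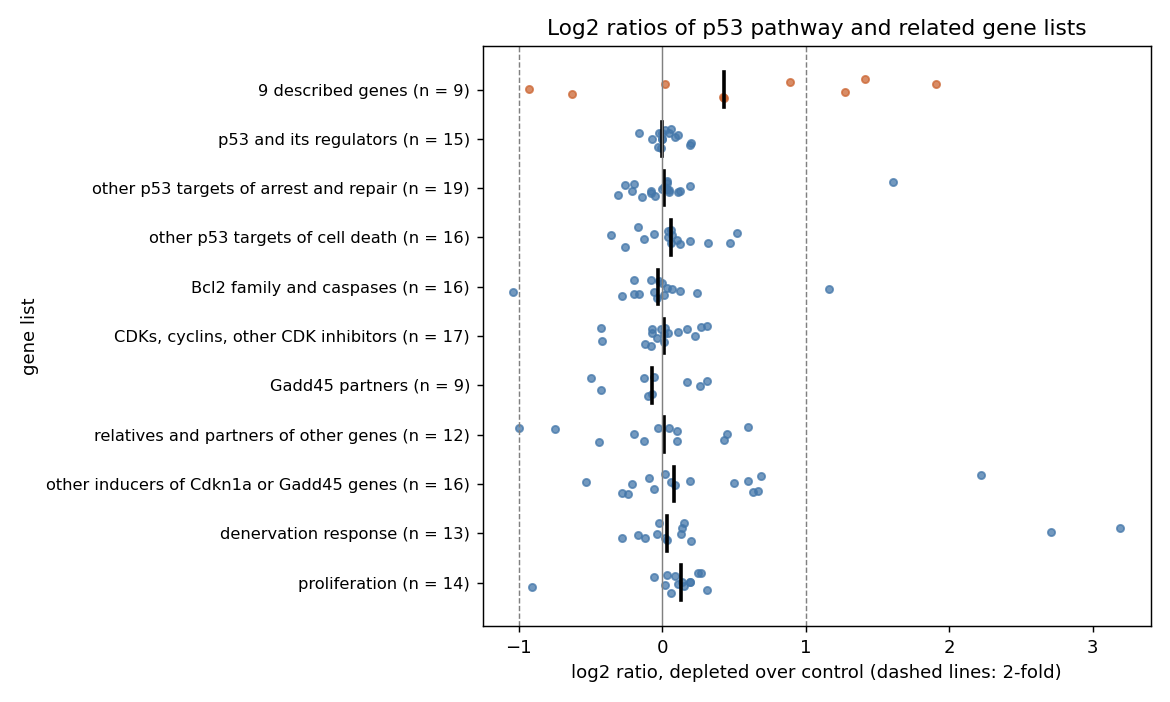
Log2 ratio (depleted over control) of each measured gene in 11 lists, 1 point per gene, with the list median as a black bar and 2-fold as dashed lines. The 9 described genes spread from -0.93 to 1.91, while the regulators of p53, of which several are dim, lie between -0.16 and 0.20 and the other targets of arrest and repair, apart from Sesn1 (1.61), between -0.31 and 0.19.

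Markers of cell types also differed between the arrays. The tissue label was borne out by the intensity of the 12 skeletal muscle markers. Their processed intensities summed to 449047.6 in control and 321215.9 in depleted muscle, the largest sums of the marker lists. Being above background marks no tissue, as 92.6% (control) and 92.8% (depleted) of probes were. The median log2 ratio of the 12 was -0.12 (Myh1 -0.43, Pygm -0.38) and -0.16 with scaling to the median. It was -0.47 in the authors' processed values and -0.60 with cyclic loess. Scaling to the positive control spots gave -0.97, with all genes at -0.83. The counts of lower markers that follow stand against 9698 of all 18498 genes with a log2 ratio below 0. Mesenchymal progenitor markers were lower in 13 of 13 genes, with Pdgfra at -0.94, Lum at -1.84, Col1a2 at -1.42 and Dpp4 only at -0.02. Processed intensities of these 13 summed to 23927.4 in control and 11624.8 in depleted muscle. In a whole muscle, fewer cells of a type and less RNA per cell cannot be told apart. Macrophage markers had log2 ratios from 0.00 to 1.32, led by Lgals3 (1.32) and Ctss (1.27), and their processed intensities summed to 3621.8 in control and 8095.8 in depleted muscle. Erythroid markers were lower in 6 of 6 genes, with Hbb-bt at -3.30 and Hbb-b2 at -2.51. Their globin probes can share signal. Endothelial markers (median 0.09; Cldn5 0.83, Pecam1 0.40), muscle stem cell markers (0.09; Cdh15 0.58, Sdc4 0.44) and neutrophil markers (0.02; Lcn2 1.54, S100a8 0.34) had medians nearer to 0. Of the 11 neutrophil markers 3 were lower, S100a9 at -0.23 (224.6 and 183.3 in processed values), Ly6g at -0.08 and Ltf at -0.02; they were named after their values were seen. All measured members of these lists were above background on at least 1 array. Many of these cell types can express Cdkn1a, Gadd45b and Btg2, and the part of the change in cell types in the values of the 9 genes was not tested.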

How the data were processed

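Total RNA was amplified, labelled with Cy5 and hybridised to 1 array per mouse, per the labels. The deposited scanner values are linear spot intensities at 635 nm from scans at 3 gains, without background subtraction, per the file headers. The deposited table of processed intensities follows a line on each array: about the blank spots' mean is taken off, and the rest is scaled by 1.27 (control) or 0.939 (depleted), to a median of 25.0. Spots near the blanks were empty.

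Spot intensities were corrected with normexp (offset 50), log2-transformed and quantile-normalized with limma 3.58.1 in R 4.3.3. Python 3.11.15, numpy 2.4.6, pandas 2.3.3 and matplotlib 3.10.9 did the rest. Probes were named from the platform annotation (20690 of 23473 have 1 symbol, 0 several, 2783 none), and a gene took its brightest probe. Genes needed a spot above the mean of the blanks plus 2 SD (37.4 and 38.5) on 1 array; a value below it was raised to the lowest value above it. In the processed table an empty value took the array's lowest. No genome build is given for the array in the sources used here; the RefSeq windows are those of GRCm38.p6, matched by symbol for 8 of the 9 genes. The local background column rose with the spot signal (Spearman correlation over probes 0.941 and 0.972) and was not subtracted.

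Differences of at least 2-fold were counted, with no test; precision is limited by the number of arrays. The steps were tested on simulated arrays, where the offset drew ratios toward 0. The members, gene lists and alternatives were chosen with earlier results of these data known. Named were all members, Mdm4 and Pdgfra, the 3 genes with the largest log2 ratios, in either direction, of each pathway list, 2 of each marker list, and the 2 genes on either side of Cdkn1a, without predicted genes and RIKEN clones; Trp53 was not analysed here. Others named with small values (Sesn2, Bbc3, Pmaip1, Cdkn1b, Ccng2) were chosen after their values were seen. Alternatives were an offset of 16, no correction, blank or local background subtracted, cyclic loess, scaling to the median, the processed table, the mean of a gene's probes, other filters and thresholds of 1.5-fold and 3-fold.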

Additional observations from a re-analysis of the deposited data

Results flagged for a closer look

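The positive control spots carry no gene and enter the text only as the spot-to-spot SD and as 1 of the scalings. They were brighter on the depleted array. Positive control 2 averaged 850.6 ± 91.6 (SD over 24 spots) for control and 1800.2 ± 137.2 for depleted muscle, 2.12-fold higher. Positive control 3 averaged 5668.0 ± 616.9 and 9837.3 ± 648.1, 1.74-fold higher. The median log2 ratio of all probes was 0.13 before scaling, and with that taken off the 2 controls were at 0.95 and 0.67. What these spots detect, and whether equal amounts were added to both samples, is not given in the sources used here. The effect of scaling to them on the 9 genes is given with the other scalings.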

How the results depend on the processing

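Scaling to the positive control spots was chosen after seeing the data; the other alternatives were planned. No paired analysis was possible because there is 1 array a group. The 9 genes have 1 probe each and were above background on both arrays, so the filters and the averaging of probes left their values as they were. At least 2-fold higher were 3 of the 9 genes, 1 with scaling to the positive controls and 1 at a threshold of 3-fold. At least 2-fold lower were 0, and 1 with the local background subtracted, 2 with scaling to the positive controls and 2 at 1.5-fold. The median of the 9 was 0.43 and became -0.15 with scaling to the positive controls, which put Ccng1 at -1.37, Gadd45g at -1.07, Mdm2 at -0.15, Trp53inp1 at -0.21, Phlda3 at -0.47, Gadd45a at 0.94 and Gadd45b at 0.74, with the median of all genes at -0.83. Btg2 passed 2-fold with an offset of 16 (1.14), the blank spots subtracted (1.34), the local background subtracted (1.35), scaling to the median (1.06) and the authors' processed values (1.35). With the local background subtracted Ccng1 was at -2.15 and Phlda3 at -0.31, and of the 49 other named genes 7 changed sign: Mdm4 (1.45), Pecam1 (-1.32), Btg1 (-0.92), Rb1 (0.91), Polk (0.52), Sdc4 (-0.52) and Cldn5 (-0.16); 12 moved by more than 1, among them Cycs (-9.02) and Tob1 (-4.92). On the depleted array the Cycs spot (1730.3) lay below its local background (1818.9), and differences below 1 were set to 1. Its -9.02 is thus set by that floor. The Tob1 spot (1279.9) there was barely above its local background (1262.6). The cause of the other moves was not tested. Over all genes, 91 were higher and 79 lower; an offset of 16 gave 163 and 117, the blank spots subtracted 508 and 360, the local background subtracted 1940 and 2021, scaling to the median 216 and 38, the authors' processed values 592 and 397, scaling to the positive controls 27 and 794, a threshold of 1.5-fold 363 and 282 and of 3-fold 27 and 17. Signal over background limits the dim genes such as Mdm4 and Pmaip1.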
